A study of Homo sapiens with 6 samples.

Results

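The protein kinase C genes *PRKCA*, *PRKCB*, *PRKCD*, *PRKCE*, *PRKCH*, *PRKCI*, *PRKCQ* and *PRKCZ* and the related protein kinase D genes *PRKD1* and *PRKD3* were examined in RNA-seq libraries of HEK293T cells, a human embryonic kidney line that carries the SV40 large T antigen. The 10 genes were matched by symbol to the merged count table and were among 23304 genes with at least 10 reads summed over the 6 libraries, and all 10 passed that minimum. *PRKCB* was selected on its lower counts in the comparison described here and the others were added as its family, so the differences between the groups are given for these genes as descriptions, without a test. 3 libraries came from cells expressing a control short-hairpin RNA (sh-control) and 3 from cells expressing a hairpin against *RREB1*, a zinc finger transcription factor (sh-*RREB1*). Both groups were grown in the same medium with serum, no other treatment or genotype was given, and the cells of both groups carried a hairpin construct. The labels do not say whether the 3 libraries of a group came from separate cultures, so errors and p-values measure the spread between these libraries, which may be technical.

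Protein kinase C enzymes are serine/threonine kinases that carry signals from membrane lipids. Receptors activate phospholipase C, which cuts a membrane phosphoinositide into inositol trisphosphate, which releases calcium, and diacylglycerol, which recruits the kinases to the membrane. Conventional enzymes (*PRKCA*, *PRKCB*) respond to calcium and diacylglycerol, calcium-independent enzymes (*PRKCD*, *PRKCE*, *PRKCH*, *PRKCQ*) to diacylglycerol alone, and atypical enzymes (*PRKCI*, *PRKCZ*) to neither, acting with the PAR6 polarity proteins. Protein kinase D enzymes bind diacylglycerol and are phosphorylated by the calcium-independent protein kinase C enzymes. *PRKCB* is best known for its role in B cell receptor signalling.

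*PRKCB* (ENSG00000166501) lies on the plus strand of chromosome 16 of GRCh38 from 23835983 to 24220611, and *PRKCA* (ENSG00000154229), the other conventional gene, on the plus strand of chromosome 17 from 66302613 to 66810743. Without correction for GC content and length, *PRKCB* had the largest difference between the groups of the 10 genes and *PRKCA* the smallest. The 250 bases before the start site of each are shown for that reason. They are the RefSeq sequences of GRCh38.p14 at chr16:23835733-23835982 and chr17:66302363-66302612, 5′ to 3′ on the plus strand, and the capitals mark GC boxes (GGGCGG on either strand).
PRKCB: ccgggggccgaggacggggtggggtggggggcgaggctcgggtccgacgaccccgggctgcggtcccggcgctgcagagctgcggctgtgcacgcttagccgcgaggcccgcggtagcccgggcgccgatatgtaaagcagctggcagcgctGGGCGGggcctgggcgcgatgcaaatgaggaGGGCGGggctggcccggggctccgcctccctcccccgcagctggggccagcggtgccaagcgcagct
PRKCA: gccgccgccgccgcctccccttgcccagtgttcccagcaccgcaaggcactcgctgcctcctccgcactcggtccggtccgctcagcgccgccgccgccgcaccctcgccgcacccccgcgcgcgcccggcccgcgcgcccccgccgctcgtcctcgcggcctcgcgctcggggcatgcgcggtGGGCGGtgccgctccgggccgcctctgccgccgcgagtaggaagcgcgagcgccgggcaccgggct
The *PRKCB* stretch had a GC content of 77.2% with 30 CpG dinucleotides and 2 GC boxes, and that of *PRKCA* 82.0% with 47 CpG dinucleotides and 1 GC box. The 10 genes had 16 promoter entries, some with several start sites a gene. A GC box was found in 12 of the 16 entries, and in at least 1 entry of 9 of the 10 genes. The comparison is with 27305 promoters of the same length, 1 entry for each gene symbol, of which 42.3% had a GC box. Genes with several entries are therefore counted more fully among the 10 than in that comparison. The median GC content of all promoters searched was 58%. CCACCCC and CCAAACC, which are parts of a sequence known to be bound by RREB1, were searched on both strands. CCACCCC matched at 2 overlapping places before *PRKCB* and at none before *PRKCA*. It also matched at 2 places in 1 entry of *PRKCD*, at 2 in 1 entry of *PRKCZ* and at 1 before *PRKCH*. The log2 fold changes of *PRKCD*, *PRKCZ* and *PRKCH*, described below, were 0.31, 0.37 and −0.60. CCACCCC was found in 4 of the 16 entries, which belong to 4 of the 10 genes, and in 14.7% of the 27305 promoters. CCAAACC matched before none of the 10 genes and in 3.78% of the 27305 promoters.

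The libraries held 12257054 to 33044061 reads counted on genes. sh-*RREB1* replicate 3 was the shallowest and 52.1% of its reads aligned at several positions, compared to 3.66% to 7.63% in the others. Of its gene counts on either strand 24.2% were on the opposite strand, compared to 4.92% to 5.47% in the others. Without this library the log2 fold changes of the kinase genes described below were −1.94 for *PRKCB*, −0.58 for *PRKCH*, −0.39 for *PRKCQ*, −0.38 for *PRKD1*, −0.28 for *PRKD3*, −0.27 for *PRKCI*, 0.05 for *PRKCA*, 0.30 for *PRKCD*, 0.35 for *PRKCE* and 0.40 for *PRKCZ*. *RREB1* itself, the target of the hairpin, was at 27.2, 25.2 and 26.6 CPM (reads on the gene per 1000000 reads on all genes, with library sizes scaled by TMM) in sh-control and 23.7, 24.6 and 23.2 CPM with the labelled sh-*RREB1*, a log2 fold change of −0.14 (standard error 0.13, edgeR adjusted p = 0.486). All 3 sh-*RREB1* libraries were below all sh-control libraries, as was found for 20.0% of all genes tested. The log2 fold change was −0.36 with the trend on GC content and exonic length removed (edgeR adjusted p = 0.0534). *RREB1* was not called either way, so each direction below rests on the labels. Markers of this line such as *VIM*, *KRT8* and *LIN28B* were detected in every library, with *PAX2* at 3 to 10 reads. 6 markers of blood, endothelium, fibroblasts, liver and heart together had 13 to 83 reads a library, which is 1.09 to 1.50 CPM with sh-control and 1.03 to 3.17 CPM in sh-*RREB1*. *MYH6*, *PTPRC*, *CDH5*, *PECAM1* and *ALB* were at 0 in at least 1 library, and *COL1A1* was the highest of these markers in the sh-*RREB1* libraries. Their part in the results was not tested. In bulk RNA, fewer cells expressing a gene and less RNA per cell cannot be told apart.

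Of the genes tested, 794 (3.41%) were called, with an adjusted p under 0.01 and a log2 fold change beyond 1 in either direction, 163 of them (0.699%) lower and 631 (2.71%) higher in sh-*RREB1*, so that 79.5% were higher. 1 of the 10 kinase genes, *PRKCB*, was among the lower ones, by which it had been selected. Of the 10 genes, 5 had all sh-*RREB1* libraries below all sh-control libraries and 1 had them all above, while over all genes 20.0% were lower and 21.1% higher in this way. The median log2 fold change of the 10 genes was −0.26, compared to 0.01 for all genes tested. Genes with GC-rich exons had higher fold changes in these libraries, so each was also estimated with the trend on GC content and exonic length removed from every library. This gave 704 calls (3.02%), 60.2% of them higher, and a median of −0.28 for the 10 genes, compared to −0.03 for all genes.

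**Figure D1:**
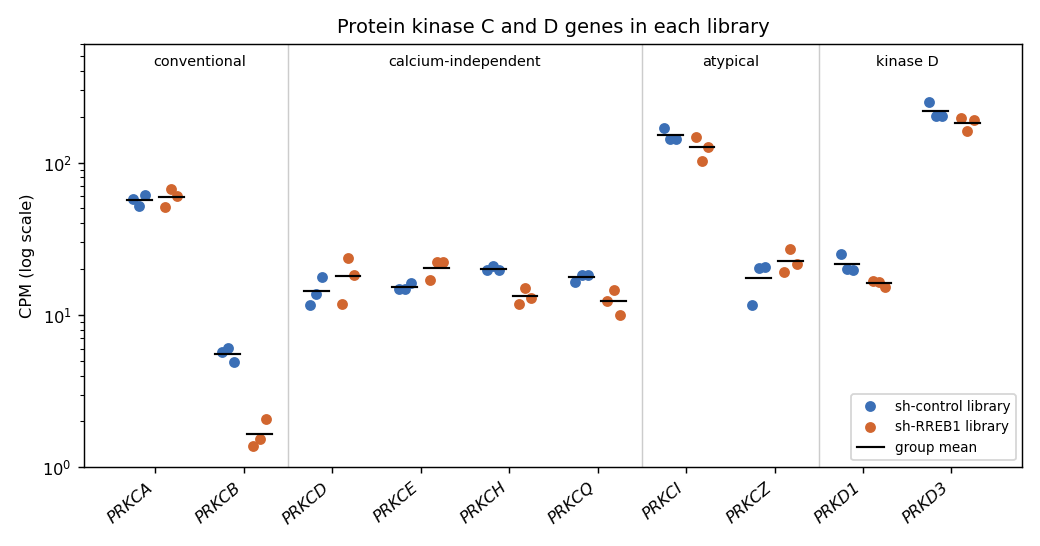
CPM on a log axis for the 10 genes in each library, grouped by class. Points are libraries (blue sh-control, orange sh-RREB1) and bars are means of 3 libraries. *PRKCB* sits lowest, at 4.89 to 6.11 CPM with sh-control and 1.37 to 2.06 CPM in sh-RREB1.

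*PRKCB* encodes conventional protein kinase C beta. It was counted at 131, 166 and 157 reads in sh-control replicates 1, 2 and 3 and at 34, 40 and 26 reads in the sh-*RREB1* replicates. This was 5.70, 6.11 and 4.89 CPM compared to 1.37, 1.53 and 2.06 CPM. The highest sh-*RREB1* library was below the lowest sh-control library. The log2 fold change was −1.78 (standard error 0.22), a level 29.1% of that in sh-control, and −1.73 with the GC and length trend removed. The next largest difference among the 10 genes was −0.60, for *PRKCH*. *PRKCB* no longer passed the thresholds without sh-control replicate 2 (−1.73), sh-*RREB1* replicate 1 (−1.66), replicate 2 (−1.73) or replicate 3 (−1.94). Over all genes, 9, 25, 136 and 8 were called in these fits, in that order. With the trend removed *PRKCB* passed in all 6 fits that left out a library, which is given as a description of a selected gene.

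*PRKCA*, the conventional enzyme expressed in most cell types, had similar levels in the groups. It was at 57.7, 51.7 and 60.8 CPM with sh-control and 51.3, 66.6 and 60.3 CPM in sh-*RREB1*. The groups overlapped, and the log2 fold change was 0.07 (standard error 0.14). Per length of exon, *PRKCB* made up 9.09%, 10.7% and 7.53% of the summed level of the conventional pair in sh-control and 2.63%, 2.27% and 3.34% in sh-*RREB1*. The conventional pair together held 7.87% ± 0.561 (SD, n = 3) of the summed level of the 10 genes in sh-control and 8.90% ± 1.47 (SD, n = 3) in sh-*RREB1*, ranges that overlapped.

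Among the calcium-independent enzymes, *PRKCH* and *PRKCQ* were lower in sh-*RREB1* and *PRKCE* was higher, with no overlap of the groups. *PRKCH* (protein kinase C eta), found mainly in epithelia, was at 19.6, 20.9 and 19.7 CPM with sh-control and 11.8, 15.1 and 12.9 CPM in sh-*RREB1*, a log2 fold change of −0.60 (standard error 0.15). *PRKCQ* (theta), known for its role at the T cell synapse, was at 16.4, 18.3 and 18.4 CPM and at 12.3, 14.6 and 9.91 CPM, a log2 fold change of −0.52 (standard error 0.18). The lowest *PRKCQ* value was in the shallow sh-*RREB1* replicate 3. *PRKCE* (epsilon) was at 14.9, 14.8 and 16.3 CPM with sh-control and 16.9, 22.1 and 22.1 CPM in sh-*RREB1*, a log2 fold change of 0.41 (standard error 0.16). These directions stayed the same with the GC and length trend removed, at −0.67 for *PRKCH*, −0.43 for *PRKCQ* and 0.37 for *PRKCE*.

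*PRKCD* (delta), known for roles in apoptosis and B cell tolerance, was at 11.6, 13.8 and 17.8 CPM with sh-control and 11.7, 23.7 and 18.2 CPM in sh-*RREB1*. The groups overlapped, and the log2 fold change was 0.31 (standard error 0.27) but −0.21 with the GC and length trend removed. The lowest library of either group was replicate 1. The exons of *PRKCD* had a GC content of 56.0%, the second highest of the 10 genes.

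The atypical enzymes overlapped between the groups. *PRKCI* (iota), a partner of PAR6 in cell polarity, was at 170, 143 and 142 CPM with sh-control and 148, 103 and 127 CPM in sh-*RREB1*, a log2 fold change of −0.27 (standard error 0.15) that was −0.03 with the trend removed. *PRKCZ* (zeta) was at 11.5, 20.2 and 20.6 CPM with sh-control and 19.1, 27.1 and 21.7 CPM in sh-*RREB1*. Its sh-control replicate 1 was at 0.566 of the mean of the other two, and without that library the log2 fold change was 0.12. With all libraries the log2 fold change of *PRKCZ* was 0.37 (standard error 0.24), and −0.48 with the trend removed, where all sh-*RREB1* libraries lay below all sh-control libraries. *PRKCZ* had the highest exonic GC content of the 10 genes, 59.5%.

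The protein kinase D genes, whose enzymes act in transport from the Golgi, were lower in sh-*RREB1* without overlap. *PRKD1* was at 25.1, 20.0 and 19.9 CPM with sh-control and 16.6, 16.6 and 15.2 CPM in sh-*RREB1*, a log2 fold change of −0.42 (standard error 0.16). *PRKD3* was at 248, 202 and 201 CPM with sh-control and 196, 161 and 189 CPM in sh-*RREB1*, a log2 fold change of −0.25 (standard error 0.13). With the trend removed *PRKD1* kept a log2 fold change of −0.34, while *PRKD3* was at −0.03 and its groups overlapped.

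**Figure D2:**
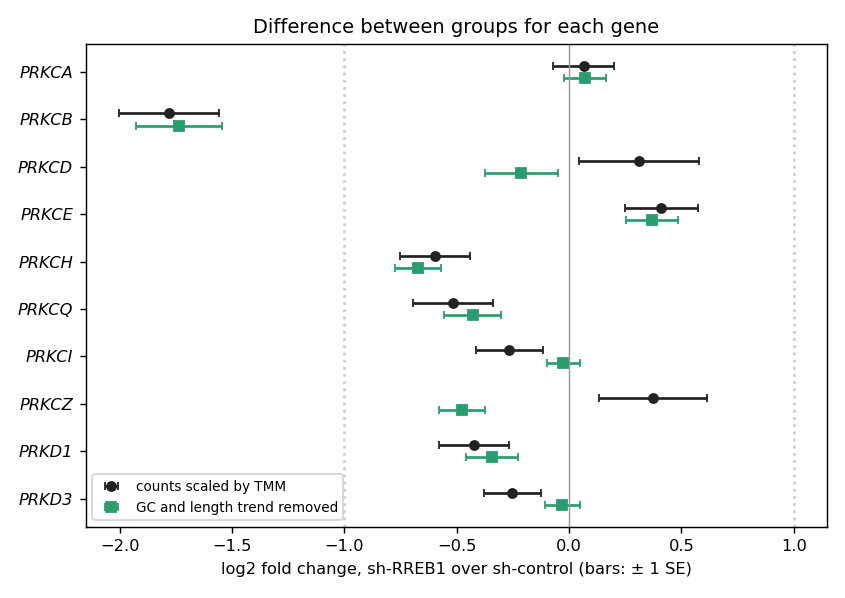
Log2 fold change of each gene, sh-RREB1 over sh-control, with bars of 1 standard error. Black circles are counts scaled by TMM and green squares the same counts with the GC and length trend removed, and dotted lines mark the fold threshold. *PRKCB* lies at −1.78 and −1.73, and *PRKCD* and *PRKCZ* change sign between the scalings.

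Over the 10 genes the correlation of exonic GC content with log2 fold change was 0.39 (Pearson's r across genes, which share their libraries) and −0.11 with the trend removed. *PRKCB*, at a GC content of 45.8%, had a lower fold change than *PRKD1* (46.5%), *PRKCQ* (47.5%) and *PRKCA* (47.6%), which are near it on this scale and had log2 fold changes of −0.42, −0.52 and 0.07. *PRKCB* had been selected for its lower counts, so its place in this order is no test of the part of GC content. The lowest GC contents were those of *PRKD3* (38.0%) and *PRKCI* (38.1%).

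**Figure D3:**
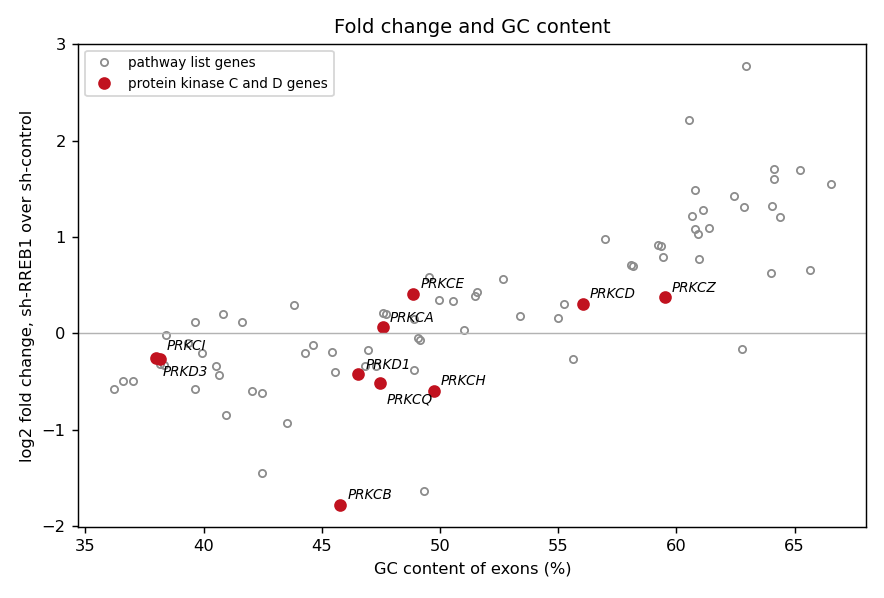
Log2 fold change, sh-RREB1 over sh-control, against the GC content of exons in percent. Red points are the 10 kinase genes and open grey points are the tested genes of the pathway lists. *PRKCB* lies at 45.8% and −1.78, and *PRKCZ* has the highest GC content of the red points at 59.5%.

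Levels per length of exon were compared between genes as CPM per kb. In sh-control *PRKCI* was the highest at 24.6 to 29.4 CPM per kb, then *PRKD3* at 19.6 to 24.2, and the other genes were at or below 5.59. *PRKCQ* and *PRKCA* followed, at means of 5.38 and 5.08, and their libraries overlapped. *PRKD1* at 3.73, *PRKCD* at 2.93, *PRKCZ* at 2.26 and *PRKCH* at 2.24 each overlapped their neighbour. *PRKCE* at 1.53 and *PRKCB* at 0.504 CPM per kb were lowest and did not overlap each other. In sh-*RREB1* *PRKCI* (21.8 CPM per kb) and *PRKD3* (17.7) overlapped, *PRKCA* (5.31) stood above *PRKCQ* (3.74) without overlap, *PRKCE* (2.04) stood above *PRKCH* (1.48) without overlap, and *PRKCB* was again lowest at 0.150. The summed level of the 10 genes was 71.0 ± 4.40 CPM per kb (SD, n = 3) in sh-control and 61.6 ± 2.37 (SD, n = 3) in sh-*RREB1*. *PRKCI* and *PRKD3*, the largest parts of this sum, each had a log2 fold change of −0.03 with the GC and length trend removed. The sum and the shares below were taken without that correction. The libraries of the groups overlapped in the share of each class, with calcium-independent enzymes at 17.1% ± 2.29 and 17.8% ± 4.07, atypical enzymes at 40.1% ± 0.657 and 40.1% ± 3.97, and protein kinase D at 34.9% ± 2.24 and 33.2% ± 1.63 (SD, n = 3 each).

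**Figure D4:**
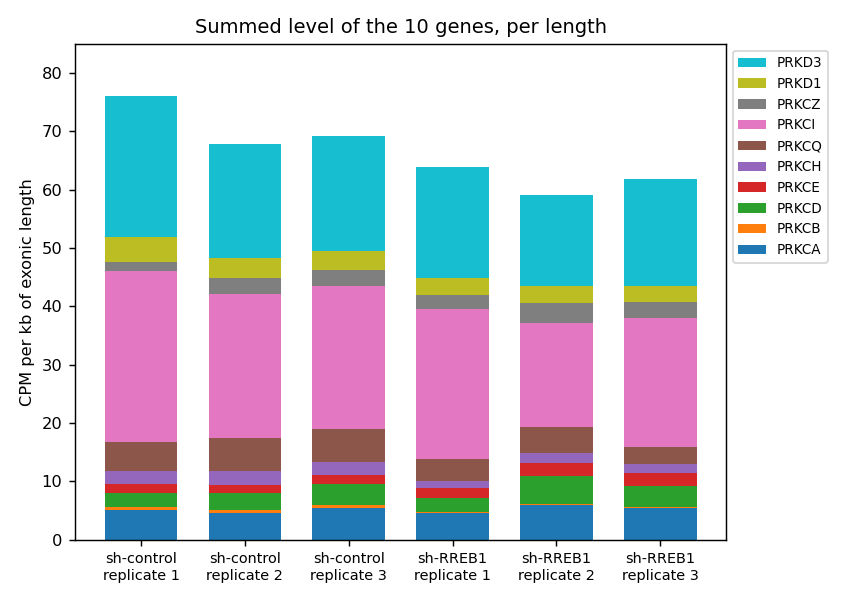
Stacked CPM per kb of exonic length for the 10 genes in each library, so that bar height is their summed level. *PRKCI* and *PRKD3* are the largest segments in every bar, and *PRKCB* the thinnest.

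Reads on the strand opposite to each gene were few. *PRKCB* had 1 such read in all 6 libraries together, and no annotated gene on the opposite strand overlapped its exons. *PRKCZ* had 115 opposite reads (3.78% of its reads on both strands), and *FAAP20*, a Fanconi anaemia pathway gene, overlaps 590 bases of its exons on the other strand. *FAAP20* was at 2.52, 3.39 and 4.08 CPM with sh-control and 5.56, 6.65 and 5.55 CPM in sh-*RREB1*, which did not overlap (log2 fold change 0.83, edgeR adjusted p = 0.0309, not called). *PRKD3* had 578 opposite reads (1.95%) and shares 265 exonic bases with *NDUFAF7*, which differed by −0.20 on the log2 scale (edgeR adjusted p = 0.321). Counts were taken by strand, so these reads were not part of the values above. *PRKCZ-AS1* and *PRKCH-AS1* had 9 and 8 reads in all, *TMEM30B* none, and *PRKCA-AS1* and *PRKCE-AS1* none.

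The genes whose log2 CPM over the 6 libraries followed *PRKCB* most closely, among 14482 with a mean of at least 1 CPM, were *CCT6A* (Pearson's r 0.999), *ZNF879* (0.998), ENSG00000201592 (0.998), *ETV1* (0.997) and *SRPK2* (0.997). The libraries are the same for all genes and the groups differ, and 703 genes had an r above 0.95, so these values are a description. *CCT6A* encodes a chaperonin subunit and *ETV1* an ETS transcription factor. *ETV1* was at 8.75, 9.16 and 7.60 CPM with sh-control and 1.73, 1.91 and 2.38 CPM in sh-*RREB1*, or −2.10 on the log2 scale, and *CCT6A* differed by −0.36. No p is given for these genes, since they were chosen for following *PRKCB*.

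Genes that work with these kinases were taken from 6 lists of 77 genes, of which 71 passed the minimum and could be tested in the fit across all genes. Values of these genes without a unit are log2 fold changes. 2 of the 71 were called, both higher in sh-*RREB1*, which is to be read against the 3.41% called among all genes. 4 of the 71 had an edgeR adjusted p below 0.01, compared to 1282 of all 23304 genes (5.50%). 40 of the 71 had an unadjusted edgeR p below 0.05, compared to 8012 of all 23304 genes (34.4%). DESeq2 called 13 of the 71, and 1647 of the 17427 genes to which it gave an adjusted p (9.45%). The median log2 fold change over the lists was 0.20, and it was 0.00 with the trend removed.

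Phospholipase C enzymes produce the diacylglycerol that activates these kinases. Of 13 tested, edgeR called 1 and DESeq2 called 2. Over the genes to which each gave an adjusted p, 3.41% and 9.45% were called. An unadjusted edgeR p below 0.05 was found for 6, compared to 34.4% of all genes. *PLCD3* was at 1.65, 2.69 and 3.80 CPM with sh-control and 11.1, 15.4 and 11.7 CPM in sh-*RREB1*, without overlap, a log2 fold change of 2.21 (standard error 0.29, edgeR adjusted p = 0.00357). It was 1.29 with the trend removed and passed there too. *PLCD4* was at −1.64 (edgeR adjusted p = 0.0256) from 0.522, 0.846 and 0.842 CPM with sh-control and 0.161, 0.306 and 0.238 CPM in sh-*RREB1*. *PLCG1* and *PLCB1*, the most abundant, overlapped between the groups with log2 fold changes of 0.16 and −0.10. *PLCL1*, an inactive relative, was named after its values were seen: it was at −0.84 (edgeR adjusted p = 0.0085), short of the fold threshold.

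Newly made protein kinase C is primed by phosphorylation through PDPK1 and the mTORC2 complex and held by HSP90 and CDC37. Of 10 tested genes of priming and dephosphorylation, edgeR called 1 and DESeq2 called 2. Over the genes to which each gave an adjusted p, 3.41% and 9.45% were called. An unadjusted edgeR p below 0.05 was found for 5, compared to 34.4% of all genes. *MLST8*, a subunit of both mTOR complexes, was at 1.83, 3.46 and 3.52 CPM with sh-control and 26.5, 21.2 and 12.8 CPM in sh-*RREB1*, a log2 fold change of 2.78 (standard error 0.33, edgeR adjusted p = 0.00273) and 1.65 with the trend removed. *MTOR* was at 0.34 (edgeR adjusted p = 0.138), *CDC37* at 1.10 (edgeR adjusted p = 0.0309, 0.15 with the trend removed) and *HSP90AB1* at −0.04 (edgeR adjusted p = 0.866). *MLST8* and *PLCD3* lost their calls without sh-control replicate 2 or any 1 of the sh-*RREB1* libraries, with log2 fold changes of 1.93 to 2.51 for *PLCD3* and 2.51 to 3.01 for *MLST8* over the 6 omissions, and kept them in all fits that left out a library after the trend was removed.

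Relatives outside the 10 genes include *PRKD2*, *PKN2* and *PKN3*. None of 5 listed was called by edgeR and DESeq2 called 2, compared to 3.41% and 9.45% of the genes to which each gave an adjusted p. An unadjusted edgeR p below 0.05 was found for 4, compared to 34.4% of all genes. *PRKD2*, the remaining protein kinase D, was at 3.05, 4.16 and 4.77 CPM with sh-control and 7.70, 11.7 and 8.49 CPM in sh-*RREB1*, or 1.21 on the log2 scale (edgeR adjusted p = 0.011) and 0.25 with the trend removed. *PKN3* was at 1.21 (edgeR adjusted p = 0.0689) and −0.03, and *PKN2* at −0.49 (edgeR adjusted p = 0.0434) and −0.28, without and with the trend removed.

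Most of the other listed proteins bind diacylglycerol through a domain shared with protein kinase C. Of 11 tested, none was called by edgeR and DESeq2 called 2, compared to 3.41% and 9.45% of the genes to which each gave an adjusted p. An unadjusted edgeR p below 0.05 was found for 4, compared to 34.4% of all genes. *RASGRP3*, a Ras activator that protein kinase C can phosphorylate, was at 1.44, 1.36 and 1.31 CPM with sh-control and 0.403, 0.650 and 0.397 CPM in sh-*RREB1*, without overlap, or −1.45 on the log2 scale (edgeR adjusted p = 0.0125). It passed the thresholds with the trend removed, at −1.27, and then in 1 of 6 fits that also left out a library. *CDC42BPA* was at −0.62 (edgeR adjusted p = 0.0104) and *UNC13B* at −0.20 (edgeR adjusted p = 0.413). *UNC13D*, whose protein lacks that domain, at no more than 0.306 CPM in a library, was at 1.42 with a standard error of 0.94.

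Scaffolds place the kinases within the cell. Of 12 tested, none was called by edgeR and DESeq2 called 1, compared to 3.41% and 9.45% of the genes to which each gave an adjusted p. An unadjusted edgeR p below 0.05 was found for 6, compared to 34.4% of all genes. *PDLIM7* was at 1.61 (edgeR adjusted p = 0.0115) and 0.37 with the trend removed, and *PICK1*, which binds protein kinase C alpha, was at 0.92 (edgeR adjusted p = 0.0466) and 0.16. *RACK1*, the receptor for activated protein kinase C and a ribosomal protein, was at 0.43 and *AKAP12* at −0.33, neither called.

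Of 20 substrates and effectors tested, none was called by edgeR and DESeq2 called 4. Over the genes to which each gave an adjusted p, 3.41% and 9.45% were called. An unadjusted edgeR p below 0.05 was found for 15, compared to 34.4% of all genes. *CARD10*, which signals to NF-kappaB, was at 1.71 (edgeR adjusted p = 0.0343) and 0.47 with the trend removed, and *PPP1R14B*, a phosphatase inhibitor, at 1.55 (edgeR adjusted p = 0.0226) and 0.10. *KIDINS220*, a protein kinase D substrate, was at −0.32 (edgeR adjusted p = 0.0444) and *ADD3*, an adducin of the membrane skeleton, at −0.58 (edgeR adjusted p = 0.011). *MARCKSL1*, chosen after its values were seen, was at 0.71 (edgeR adjusted p = 0.00645), short of the fold threshold, and 0.03 with the trend removed. The median of this list was 0.58 and 0.09 with the trend removed.

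**Figure D5:**
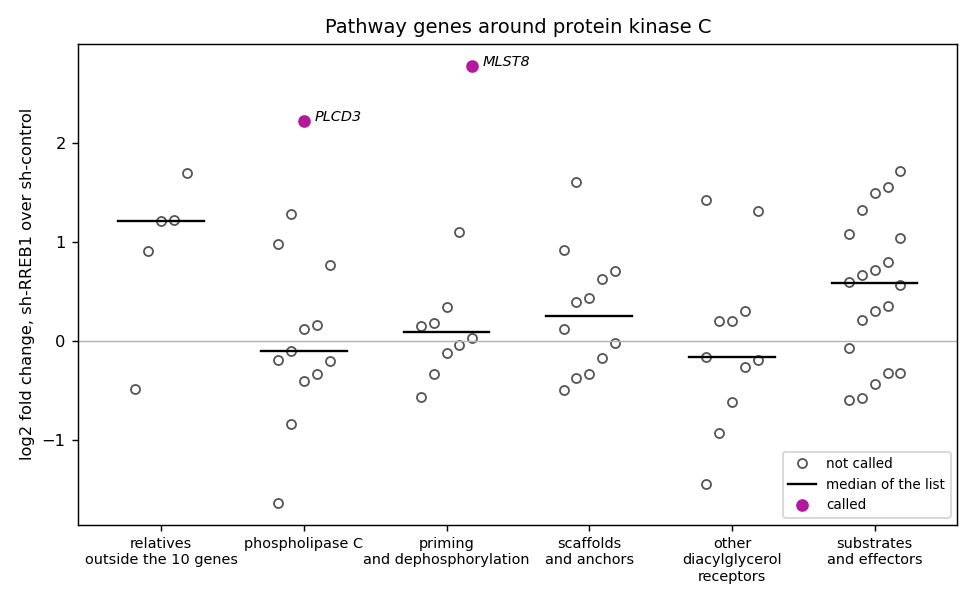
Log2 fold change, sh-RREB1 over sh-control, of the 71 tested pathway genes by list. Open circles were not called, filled circles were called and bars are list medians. *MLST8* (2.78) and *PLCD3* (2.21) are the called genes, and list medians run from −0.17 to 1.21.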

How the data were processed

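Stranded total RNA libraries of HEK293T cells were aligned by the authors to hg38 with STAR, and the deposited values are raw read counts per gene for each of the 6 libraries, with a merged count table. Reads were taken from the sense strand alone. Identifiers were matched to symbols (56948 of 58037), and of several identifiers with 1 symbol the best covered was kept. Genes with at least 10 reads in total were tested with edgeR (4.0.16, R 4.3.3) by the quasi-likelihood test with TMM factors and condition as the only term, with Benjamini-Hochberg adjustment. Calls needed an adjusted p under 0.01 and a log2 fold change beyond 1 in either direction. Depth was 12257054 to 33044061 reads on genes, which limits the precision of genes with few reads. Levels are CPM, and per kb of exonic length from Gencode version 44. Alternatives included DESeq2 (1.42.0), other filters and scalings, the merged table, both strands, a spline on GC content and length as offset, the replicate number as a block and each library left out. The members and lists were chosen with earlier results of these data known. Named are the 10 kinase genes, called genes of the lists, up to 4 examples per list (the 2 largest changes, then the 2 highest levels), the 5 genes most like *PRKCB*, genes on the opposite strand of a kinase gene, and *RREB1*. No protein sequence was used here, and single values of some listed genes are not reported here.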

Additional observations from a re-analysis of the deposited data

Results flagged for a closer look

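Reads on the strand opposite to *PRKCZ* were left out of the main comparison of the kinases. They were at 0.435, 0.515 and 0.499 CPM with sh-control and 1.33, 1.07 and 1.11 CPM in sh-*RREB1*. The mean was 0.483 CPM and 1.17 CPM, from 10, 14 and 16 reads against 33, 28 and 14. They were noted because a signal outside the counts used was above its level in the control libraries. The exons of *FAAP20* overlap *PRKCZ* on this strand, and the reads were not assigned to either gene by a test. Over all genes, 24.2% of counted reads were on the opposite strand in sh-*RREB1* replicate 3 and 4.92% to 5.47% in the other libraries, whose part in this was not tested.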

How the results depend on the processing

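The log2 fold change of *PRKCB* ran from −1.94 to −1.64 over 22 alternatives, given as a description since the gene was selected on this comparison. For the other kinase genes 16 alternatives were run, over which *PRKCE*, *PRKCH*, *PRKCQ* and *PRKD1* kept their direction, *PRKCI* and *PRKD3* were at −0.03 with the GC and length trend removed, *PRKCA* ran from −0.03 to 0.16, *PRKCD* from −0.22 to 0.54 and *PRKCZ* from −0.48 to 0.49. 8 values of *PRKCD*, *PRKCI*, *PRKCZ* and *PRKD3* moved beyond their spread with the GC and length trend removed, and 158 others did not. *RREB1* was not called in any of the 16 alternatives run for it. The number of genes called in all was 1647 with DESeq2, 1801 with a minimum of 1 read, 2032 at an adjusted p below 0.05 and 8 to 1117 with a library left out (9 after omission of sh-control replicate 2, 383 of sh-control replicate 3, and 25, 136 and 8 of sh-*RREB1* replicates 1, 2 and 3). With the GC and length trend removed it was 506 if sh-control replicate 2 was omitted, 493 for sh-*RREB1* replicate 1 and 459 for sh-*RREB1* replicate 3. The share of calls that were higher was 79.5%, and 60.2% with the trend removed. Of the pathway genes, 13 were called with DESeq2, 4 with total reads and no TMM, 15 with a minimum of 1 read, 14 at an adjusted p below 0.05 and 0 to 7 with a library left out. With the replicate number as a block 1684 genes and 14 pathway genes were called, and 4 pathway genes with the block and the trend removed. With the block *PRKCB* was at −1.78. Deviations of same-numbered libraries from their group means had correlations of 0.50, 0.43 and −0.28 over 14332 genes, so the numbers were not taken to pair the libraries, and sh-control replicate 3 correlated best with sh-*RREB1* replicate 2 (0.56). The cause of these changes was not tested. *PRKCB*, at 26 to 166 reads a library, was the least sampled of the 10 genes.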
